A study of Mus musculus with 2 samples.

Results

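A set of 10 genes that are widely used as marks of the meninges and of mesenchyme were followed in the embryonic mouse midbrain: the collagen chains Col1a1, Col1a2 and Col3a1, the small proteoglycans Dcn and Lum, the transcription factors Foxc1, Foxd1 and Twist1, and the enzymes Ptgds and Aldh1a2. They were given as a list of names, with no threshold on their values, and found by matching the gene identifiers of the deposited tables, without version, to the symbols of the mouse GENCODE annotation. All 10 were found, among 43346 genes measured, and all are protein-coding. Gene positions are those of GRCm38 (mm10). The material was midbrain of healthy B6NCrl embryos at 13.5 days, pooled from males and females, with no genetic change or treatment named in the labels. Total RNA longer than 200 nt was sequenced in 2 libraries, each from 10 ng of RNA with spike-in RNA added. The libraries are biological replicates 1 and 2 of 1 group, made from separate biosamples that share 1 donor entry in the labels, so the only difference that can be described is that between replicates. Each library came from whole tissue, in which fewer cells of a type and less RNA per cell cannot be told apart.

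The meninges are the membranes that wrap the brain. Their fibroblasts secrete fibrillar collagens and small leucine-rich proteoglycans, and the embryonic leptomeninges are a source of retinoic acid for the developing brain. Forebrain meninges derive largely from neural crest and those further back largely from mesoderm, and forkhead factors such as Foxc1 are needed for them to form. Several of the genes followed here are also made by fibroblasts around vessels, by choroid plexus or by skull and skin precursors.

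The 7 of 10 genes with an entry in the RefSeq promoter table (build GRCm38.p6) showed very unlike sequences upstream of the start site. The 4 below are given because they span that range and belong to the most abundant gene (Col3a1), to the genes with the largest difference between the libraries in each direction (Aldh1a2 and Ptgds) and to the transcription factor with the lowest mean level (Twist1). Each is written 5′ to 3′ on the gene's own strand and ends next to the RefSeq start, except for Ptgds. For Ptgds only the part outside annotated exons is shown. That part lies inside the annotated gene, downstream of the start of the coding transcript ENSMUST00000114251 at position 25470046. Capitals mark matches, on either strand, to TATAAA (the TATA box), to CCAAT (the CCAAT box), to GGGCGG (the GC box) or to CANNTG (the E-box, the kind of site that Twist1 and its relatives bind).
Col3a1: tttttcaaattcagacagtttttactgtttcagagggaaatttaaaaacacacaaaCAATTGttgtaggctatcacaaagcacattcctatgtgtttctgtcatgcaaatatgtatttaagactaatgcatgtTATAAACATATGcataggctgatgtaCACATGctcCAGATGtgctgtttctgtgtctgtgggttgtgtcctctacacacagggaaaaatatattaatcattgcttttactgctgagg
Aldh1a2: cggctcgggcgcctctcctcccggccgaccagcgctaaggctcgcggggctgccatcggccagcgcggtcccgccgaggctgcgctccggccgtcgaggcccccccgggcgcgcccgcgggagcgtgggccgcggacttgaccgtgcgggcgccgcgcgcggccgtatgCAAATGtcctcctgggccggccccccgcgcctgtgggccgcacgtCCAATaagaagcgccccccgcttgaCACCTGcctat
Ptgds: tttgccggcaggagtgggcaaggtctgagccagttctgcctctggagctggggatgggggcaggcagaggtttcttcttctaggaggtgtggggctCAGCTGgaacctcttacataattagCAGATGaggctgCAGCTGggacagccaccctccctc
Twist1: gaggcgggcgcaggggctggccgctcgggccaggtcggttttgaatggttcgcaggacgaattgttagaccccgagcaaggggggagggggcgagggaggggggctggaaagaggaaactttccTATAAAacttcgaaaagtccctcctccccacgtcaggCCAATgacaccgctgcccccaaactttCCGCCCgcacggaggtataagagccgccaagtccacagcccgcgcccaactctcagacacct
The Col3a1 sequence is chr1:45311288-45311537 on the plus strand, that of Aldh1a2 chr9:71215539-71215788 on the plus strand, that of Ptgds chr2:25469843-25469999 on the minus strand and that of Twist1 chr12:33957421-33957670 on the plus strand.

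The Col3a1 stretch held no CpG in 250 bases at a GC content of 35.2%, whereas that of Aldh1a2 held 40 CpGs at 77.6% GC. Over the whole window of 250 bases, the ratio of observed to expected CpGs was 0 for Col3a1, 0.095 for Ptgds, 0.466 for Col1a2, 0.600 for Foxd1, 0.740 for Twist1, 0.928 for Foxc1 and 1.07 for Aldh1a2, beside a median of 0.374 over 32851 promoters. A TATAAA stood in Col3a1 from 117 to 112 bases before the start, directly followed by an E-box, and in Twist1 from 126 to 121 bases before it. Among all promoters of that length, 12.4% held a TATA box, 33.8% a CCAAT box, 32.7% a GC box and 66.2% an E-box. No match overlapped another in the 4 stretches. Col3a1 held 4 E-boxes, Ptgds 3 and Aldh1a2 2, while Twist1 held none (0). The Aldh1a2 stretch also held CCAAT from 36 to 32 bases before the start. These matches describe the letters only.

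Replicate 1 held 32151659 and replicate 2 held 41915240 expected reads, of which spike-ins took 2.22% and 4.06%. Levels are given in TPM, a length-scaled measure of abundance, and the deposited TPM includes the spike-ins, at 5.36% of the total in replicate 1 and 9.39% in replicate 2. Differences between the libraries were therefore taken from read counts scaled over genes alone with TMM, a trimmed-mean scaling, and given on the log2 scale as replicate 2 over replicate 1. With 1 library on each side no p-value can be given. An exact permutation test of 2 values against 2 could not go below a two-sided p of 0.333. The intervals given are exact (Clopper-Pearson) 95% intervals of counting error only and take each read as independent. The reads carry no molecular identifier and several may come from 1 molecule, so the intervals can be too narrow. The 10 midbrain and neuronal markers were all detected, from Tubb3 at 1679 and 1558 TPM to En2 at 1.60 and 1.72 TPM.

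Of the 10 genes, 9 were detected, meaning 1 TPM or more in each library, beside 34.3% of all genes. Their levels fell into 3 tiers. Col3a1, Ptgds, Col1a2, Col1a1, Dcn and Lum lay between 30.4 and 148 TPM, Aldh1a2 lay at 4.08 and 6.70 TPM, and Foxd1, Foxc1 and Twist1 lay between 0.86 and 1.38 TPM. Together the 10 genes held 349 TPM in replicate 1 and 386 TPM in replicate 2, or 0.0368% and 0.0426% of the TPM of all genes. The 3 collagen chains made up 58.8% and 66.8% of that sum.

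**Figure D1:**
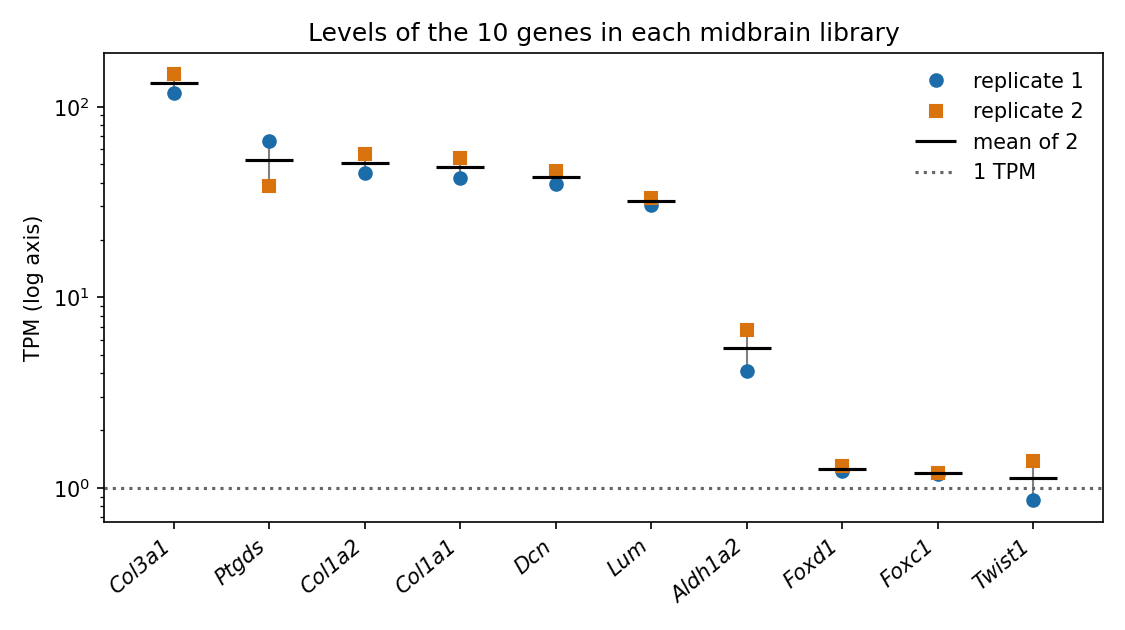
Level of each of the 10 genes in TPM (log axis) in replicate 1 (circles) and replicate 2 (squares), with the mean of the 2 libraries as a bar and 1 TPM as a dotted line. Col3a1 stands highest at 118 and 148 TPM, the 3 transcription factors lie near 1 TPM, and Ptgds is the only one of the 10 with the higher value in replicate 1.

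The order of mean levels was Col3a1, Ptgds, Col1a2, Col1a1, Dcn, Lum, Aldh1a2, Foxd1, Foxc1 and Twist1. Of its 9 neighbouring pairs, 4 had overlapping ranges over the 2 libraries, namely Ptgds with Col1a2, Col1a2 with Col1a1, Col1a1 with Dcn, and Foxc1 with Twist1. Foxd1 and Foxc1 did not overlap in deposited TPM but did when FPKM or a TPM without spike-ins was used, so 5 pairs then overlapped. Within each library Col1a2 stood above Col1a1 (1.06-fold and 1.04-fold) and Col1a1 above Dcn (1.07-fold and 1.17-fold), despite the overlap. Ptgds with Col1a2 and Foxc1 with Twist1 changed order between the libraries. The clear steps were those from Col3a1 to Ptgds, from Dcn to Lum, from Lum to Aldh1a2 and from Aldh1a2 to Foxd1. The step from Lum to Aldh1a2 was 7.46-fold in replicate 1 and 4.97-fold in replicate 2, and that from Aldh1a2 to Foxd1 was 3.34-fold and 5.15-fold, so which was wider differed between the libraries.

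The 3 fibrillar collagens were all higher in replicate 2, as were 50.9% of all genes averaging 50 reads or more, and Col3a1 was the most abundant of the 10 RNAs per length. Col3a1 encodes the chain of type III collagen, the fine-fibred collagen of loose connective tissue and vessels, and lies on chromosome 1 from 45311538 to 45349706 (plus strand, ENSMUSG00000026043). It measured 118 TPM in replicate 1 and 148 TPM in replicate 2 (133 ± 21.0, SD, n = 2), from 10096 and 17162 reads. After scaling, replicate 2 was 1.32-fold higher (interval 1.28 to 1.35, log2 ratio 0.40). The replicates thus differed by more than the counting error of independent reads, and Col3a1 ranked 1218 among all genes by mean TPM.

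Col1a1 and Col1a2 encode the chains that join, in a ratio that favours the first, into the heterotrimer of type I collagen. Col1a1 (chromosome 11, 94936224 to 94953042, plus strand, ENSMUSG00000001506) measured 42.2 and 53.9 TPM (48.0 ± 8.28, n = 2) from 4869 and 8402 reads. Col1a2 (chromosome 6, 4504814 to 4541544, plus strand, ENSMUSG00000029661) measured 44.7 and 56.3 TPM (50.5 ± 8.18, n = 2) from 4596 and 7707 reads. Both were higher in replicate 2, Col1a1 by 1.34-fold (interval 1.29 to 1.38) and Col1a2 by 1.30-fold (interval 1.25 to 1.35). Their log2 ratios of 0.42 and 0.38 lay close to the 0.40 of Col3a1, and the 3 intervals overlapped.

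Within a library the collagen RNAs kept nearly fixed proportions. The TPM of Col1a1 was 0.944 times that of Col1a2 in replicate 1 and 0.958 times in replicate 2, a log2 ratio of -0.07 ± 0.015 (SD, n = 2). Col3a1 stood 2.80-fold above Col1a1 in replicate 1 and 2.75-fold above it in replicate 2. The levels of the 2 type I chains thus differed by less than the difference of either between the libraries.

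Most of the other collagen chains looked at leaned the same way. The list of 22 collagen chain genes is a chosen part of the family, and Col2a1 is given with the cartilage markers below. Of the 22 genes 18 were detected, beside 34.3% of all genes. Of the 21 with a mean count of at least 50, 20 were higher in replicate 2 and 1 lower. Among all genes with that count, 50.9% were higher and 0.724% were past 2-fold either way. These shares are the background for each list below as well. The median log2 ratio of the 21 was 0.38, beside 0.00 over all genes. Without the 3 followed here, 17 of 18 were higher, again with a median of 0.38. Col4a1, a chain of basement membrane collagen and second among the 22, measured 45.4 and 56.8 TPM (log2 ratio 0.37). Col5a3 was lowest of the 22 at 0.28 and 0.25 TPM. Of the 21, only Col8a1, a short-chain collagen, passed a 2-fold difference, at 1.53 and 3.04 TPM (log2 ratio 1.03).

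The enzymes and chaperones that make and process collagen had a lower median ratio than the chains themselves, a difference that was not tested. Of 29 genes 26 were detected, and of 26 with enough reads 20 were higher and 6 lower in replicate 2, with a median log2 ratio of 0.17 and none (0) past 2-fold. The prolyl isomerase gene Ppib measured 255 and 258 TPM, P4hb, a subunit of prolyl 4-hydroxylase, 232 and 237 TPM, and Serpinh1, the collagen chaperone, 187 and 207 TPM. Mia3, which helps to export collagen from the endoplasmic reticulum, measured 85.0 and 80.3 TPM. The crosslinking enzyme gene Loxl4 was lowest, at 0.13 and 0.08 TPM. Several of these proteins also serve cells that make no fibrillar collagen.

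Dcn and Lum encode decorin and lumican, small leucine-rich proteoglycans that bind collagen fibrils and set their width and spacing. Dcn (chromosome 10, 97479609 to 97518143, plus strand, ENSMUSG00000019929) measured 39.5 and 46.0 TPM (42.7 ± 4.65, n = 2) from 1413 and 2199 reads. Lum (chromosome 10, 97565128 to 97572703, plus strand, ENSMUSG00000036446) measured 30.4 and 33.3 TPM (31.9 ± 2.04, n = 2) from 1205 and 1760 reads. Both were higher in replicate 2, Dcn by 1.20-fold (interval 1.13 to 1.29) and Lum by 1.13-fold (interval 1.05 to 1.22). Dcn exceeded Lum 1.30-fold in replicate 1 and 1.38-fold in replicate 2.

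Dcn and Lum are neighbours in the genome, 47.0 kb apart on the same strand. The next protein-coding gene, 34.2 kb beyond Lum, is Kera, which encodes the related proteoglycan keratocan and measured only 0.05 and 0.04 TPM. Of 15 listed genes of the proteoglycan family 8 were detected, with Bgn (biglycan) next in level at 13.8 and 16.8 TPM. Tsku measured 5.67 and 5.05 TPM, and Kera and Podn were lowest of those listed. Dcn stood 2.85-fold above Bgn in replicate 1 and 2.74-fold in replicate 2. Of 8 with enough reads 6 were higher and 2 lower in replicate 2, with a median log2 ratio of 0.17.

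The transcription factors lay near 1 TPM, with few reads behind each value. Foxc1, a forkhead factor required for the meninges and skull, lies on chromosome 13 from 31806633 to 31812476 (plus strand, ENSMUSG00000050295) and measured 1.18 and 1.20 TPM (1.19 ± 0.0141, n = 2) from 91 and 124 reads. Foxd1, a forkhead factor known from kidney stroma, ventral forebrain and mesenchyme, lies on the same chromosome from 98354242 to 98359305 (plus strand, ENSMUSG00000078302) and measured 1.22 and 1.30 TPM (1.26 ± 0.0566, n = 2) from 58 and 82 reads. The intervals of both ratios spanned 1, from 0.798 to 1.40 for Foxc1 and from 0.772 to 1.56 for Foxd1. The counting error of a single library was 21.1% and 18.0% of the count for Foxc1 and 26.7% and 22.3% for Foxd1, and differences within the intervals of the ratios were not detectable at this depth.

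Twist1, a basic helix-loop-helix factor of neural crest and cranial mesenchyme, had the lowest mean level of the 10 and was the 1 gene not detected by the rule, although in replicate 2 it stood above Foxd1 and Foxc1. It lies on chromosome 12 from 33957671 to 33959829 (plus strand, ENSMUSG00000035799) and measured 0.86 and 1.38 TPM (1.12 ± 0.368, n = 2) from 26 and 56 reads. Replicate 2 was higher by 1.65-fold with a wide interval, 1.03 to 2.77. Its mean of 41 reads lay below the minimum of 50 set for comparing the libraries.

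Each factor was set beside its nearest relative. Foxc2, which acts together with Foxc1, measured 1.06 and 1.47 TPM, so that Foxc1 stood above it in replicate 1 (1.11-fold) and below it in replicate 2 (0.816-fold). Foxd1 stood 3.59-fold above Foxd2 in replicate 1 and 3.33-fold in replicate 2, but Foxd2 rested on 17 and 26 reads. Twist1 stood 1.46-fold above Twist2 in replicate 1 and 1.39-fold in replicate 2, with 16 and 34 reads for Twist2. Foxf2, the nearest protein-coding gene on the left of Foxc1 and itself a forkhead gene of mesenchyme and pericytes, was higher than Foxc1 at 3.50 and 3.92 TPM. On the left of Twist1 lies the related factor gene Ferd3l, at 1.08 and 2.76 TPM.

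Among 31 mesenchymal transcription factors and receptors, 16 were detected. Zeb1 led with a mean of 49.0 TPM, then Ebf2 with 43.4 and 41.4 TPM, Zeb2 with 31.4 and 34.4 TPM and Msx1 with 13.2 and 18.2 TPM, and Osr2 was lowest at 0.09 and 0.07 TPM. The leading genes are also known from neural cells, so the list does not mark mesenchyme alone. Of 17 with enough reads 12 were higher and 5 lower in replicate 2, with a median log2 ratio of 0.12.

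Ptgds went the other way from the rest. It encodes lipocalin-type prostaglandin D synthase, which makes prostaglandin D2 and is a secreted carrier protein of the leptomeninges and choroid plexus, and it lies on chromosome 2 from 25466709 to 25470046 (minus strand, ENSMUSG00000015090). It measured 66.3 TPM in replicate 1 and 38.2 TPM in replicate 2 (52.3 ± 19.8, n = 2), from 890 and 722 reads. After scaling, replicate 1 was 1.59-fold higher (interval 1.44 to 1.76, log2 ratio -0.67). Among all genes averaging 50 reads or more, 0.849% had a lower ratio.

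The Ptgds reads were divided among 5 annotated transcripts, and it was the 1 gene of the 10 whose leading transcript differed between the libraries. In replicate 1 the non-coding processed transcript ENSMUST00000137417 led with 40.6% of the gene's abundance, and it held 32.6% in replicate 2. In replicate 2 the coding transcript ENSMUST00000114251, which starts furthest upstream at position 25470046, led with 35.5%, up from 21.5% in replicate 1. A second coding transcript, ENSMUST00000114259, starts at 25469749 and held 29.5% and 19.1%. Scaled reads assigned to the upstream coding transcript were nearly level, 0.986-fold in replicate 2 over replicate 1, while those of ENSMUST00000114259 were 2.60-fold and those of the processed transcript 2.09-fold higher in replicate 1. The remaining coding transcript, ENSMUST00000015234, which starts at 25469842, was at 0.928-fold and a retained-intron form at 0.899-fold. The division of reads among overlapping transcripts is an estimate with no error given here. The coding transcripts together held 53.7% and 58.8%.

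**Figure D2:**
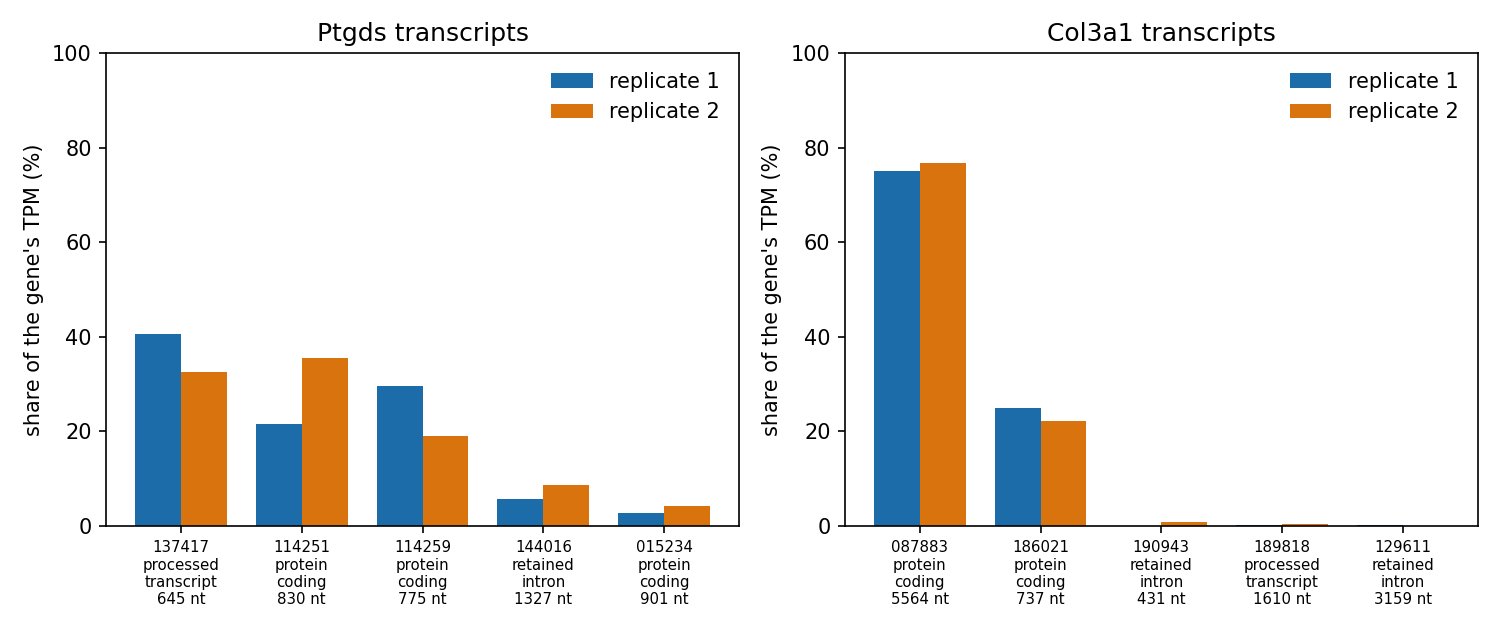
Share of a gene's TPM, in percent, assigned to each annotated transcript of Ptgds (left) and the 5 leading ones of Col3a1 (right), with 1 bar for each library. The labels give the end of the transcript's identifier, its type and its length. For Ptgds the leading bar is ENSMUST00000137417 in replicate 1 (40.6%) and ENSMUST00000114251 in replicate 2 (35.5%), while Col3a1 keeps the same leading transcript at 75.0% and 76.7%.

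The other genes kept 1 leading transcript. Of the 10, 5 have 1 annotated transcript in the tables, and 4 of the 5 with several had the same leading one in both libraries. For Col3a1 the full-length transcript ENSMUST00000087883 held 75.0% and 76.7% of the abundance, or 88.7 and 113 TPM. A coding fragment of 737 nt, ENSMUST00000186021, held 24.8% and 22.2% of the abundance but only 375 and 560 of the reads, because abundance is scaled by length. The level of Col3a1 over its full-length form alone was thus lower than the gene's TPM, yet still above that of any of the other 9 genes.

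Ptgds stood 14.8-fold above Hpgds, the blood-cell type of prostaglandin D synthase, in replicate 1 and 7.28-fold in replicate 2. Of 13 genes of the prostaglandin pathway 9 were detected. The co-chaperone and prostaglandin E synthase gene Ptges3 led at 407 and 347 TPM, with Ptgds second, Ptges2 at 30.5 and 27.5 TPM and Hpgds at 4.48 and 5.25 TPM, and the cyclooxygenase gene Ptgs2 was lowest at 0.01 and 0.02 TPM. Of 10 with enough reads 4 were higher and 6 lower in replicate 2, with a median log2 ratio of -0.07.

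Aldh1a2 and Ptgds showed the largest differences of the 9 genes with enough reads. Their fold intervals overlapped, and Aldh1a2 was ahead by scaled counts (log2 ratios 0.76 and -0.67) but Ptgds by deposited TPM plus 0.1 (0.70 and -0.79). Aldh1a2 encodes retinaldehyde dehydrogenase 2, the enzyme that makes most retinoic acid in the embryo and is known from the meninges, and it lies on chromosome 9 from 71215789 to 71296243 (plus strand, ENSMUSG00000013584). It measured 4.08 TPM in replicate 1 and 6.70 TPM in replicate 2 (5.39 ± 1.85, n = 2), from 177 and 388 reads. After scaling, replicate 2 was 1.69-fold higher (interval 1.42 to 2.04, log2 ratio 0.76). Only 1.56% of all genes with enough reads had a larger ratio in either direction.

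The genes around Aldh1a2 in retinoic acid metabolism did not all share its direction. Its sister enzyme Aldh1a1 measured 0.36 and 1.01 TPM, so that Aldh1a2 stood 11.3-fold and 6.63-fold above it, and Aldh1a3 measured 0.76 and 0.55 TPM, with Aldh1a2 5.37-fold and 12.2-fold above it. Cyp26b1, an enzyme that degrades retinoic acid, measured 10.8 and 8.78 TPM, and Aldh1a2 reached 0.379 times its level in replicate 1 and 0.763 times in replicate 2. The order of the synthesising and the degrading enzyme was thus the same in both libraries. Of 19 genes of retinoic acid synthesis and response 15 were detected, led by the binding proteins Crabp2 (111 and 101 TPM) and Crabp1 (95.6 and 65.1 TPM), then the receptor Rxrb (47.1 and 48.2 TPM), while Cyp26c1 had no reads. Of 15 with enough reads 12 were higher and 3 lower in replicate 2, with a median log2 ratio of 0.17, and the retinol carrier Rbp4 was past 2-fold at 1.44 and 4.47 TPM (24 and 100 reads, log2 ratio 1.67).

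Set side by side, 8 of the 9 genes that averaged 50 reads or more were higher in replicate 2, beside 50.9% of all such genes. None (0) of the 9 passed 2-fold, a difference reached by 0.724% of 14366 genes. The interval of the ratio lay wholly above 1 for 6 of the 9, beside 20.4% of all genes, wholly below 1 for 1, Ptgds, beside 18.9%, and spanned 1 for 2, Foxc1 and Foxd1. Deep counts narrow the interval, so the 3 collagens, with at least 4596 reads each, could show a small difference that the transcription factors could not. The median log2 ratio of the 9 was 0.27, beside 0.00 over all genes, whose middle 95% ran from -0.43 to 0.54. Aldh1a2 lay above that range, Ptgds lay below it and the other 7 lay inside it.

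**Figure D3:**
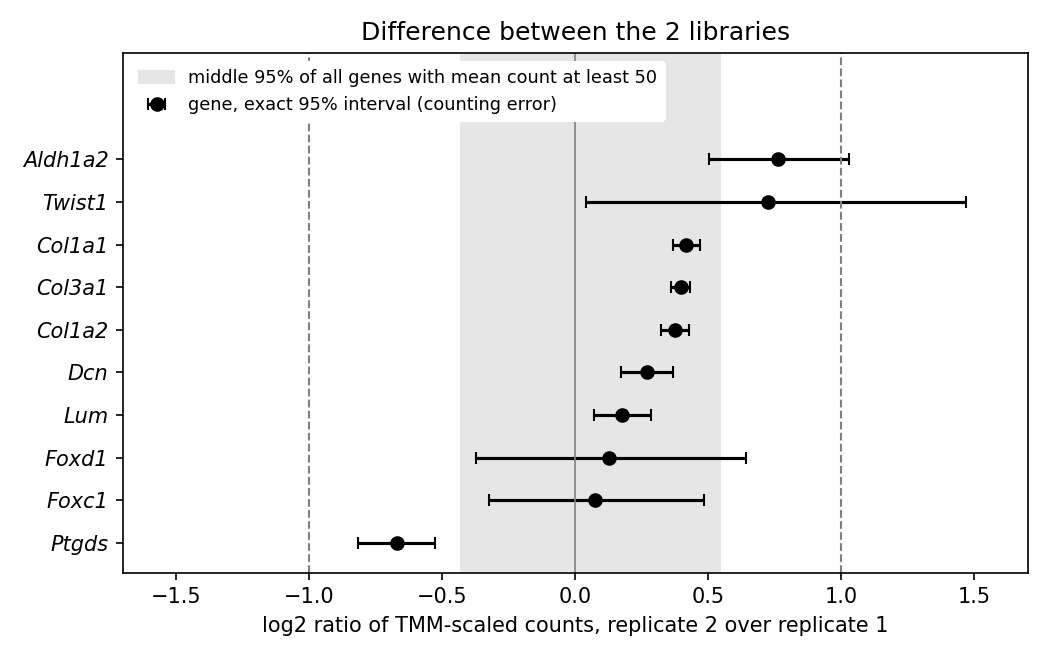
Log2 ratio of TMM-scaled counts, replicate 2 over replicate 1, for each of the 10 genes, with exact 95% intervals of counting error as bars. The grey band is the middle 95% of all genes averaging 50 reads or more, from -0.43 to 0.54, and the dashed lines mark 2-fold. Ptgds lies below the band at -0.67 and Aldh1a2 lies above it at 0.76. Twist1, at 0.72, has the widest interval of the 10. It averages 41 reads and is not among the genes behind the band. Among genes averaging 10 reads or more, 96.6% had a lower ratio than Twist1.

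Marker lists were used to describe the company these genes keep. The lists were chosen with earlier results of these data known and hold no markers of other brain regions. The tissue label was therefore not tested. Of 30 markers of meningeal fibroblasts, 2 of which are Foxc1 and Foxd1, 29 were detected, and the exception, the transporter Slc22a2, measured 0.86 and 0.98 TPM. The growth factor binding protein Igfbp2 led at 241 and 301 TPM, followed by Crabp2, the growth factor Igf2 (77.7 and 86.1 TPM) and the chemokine Cxcl12 (41.1 and 47.8 TPM). Several of these are also made by neural cells or vessels. Of 28 with enough reads 21 were higher and 7 lower in replicate 2, with a median log2 ratio of 0.14, and none (0) passed 2-fold.

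Markers of vessels were all or nearly all present. All 11 endothelial markers were detected, led by Cldn5 at 48.5 and 53.4 TPM, with a summed level of 163 and 172 TPM and a median log2 ratio of 0.16. Of 12 pericyte and smooth muscle markers 10 were detected, led by Vtn at 89.6 and 109 TPM, with sums of 146 and 171 TPM. The exceptions were Des (0.68 and 0.84 TPM) and Myh11 (0.41 and 0.29 TPM). Of the 12, 8 were higher and 4 lower in replicate 2, with a median log2 ratio of 0.15. The 7 macrophage and microglia markers were all detected, led by Pf4 at 30.7 and 35.2 TPM, with sums of 81.7 and 89.5 TPM. Their part in the levels of the collagens, Dcn and Lum was not tested.

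Most choroid plexus markers were higher in replicate 2. Of 9 such markers 6 were detected, their summed level was 77.9 TPM in replicate 1 and 139.5 TPM in replicate 2, and no marker was at 0. The 7 with enough reads were all higher in replicate 2, with a median log2 ratio of 0.70. Among these the intervals of Folr1 and Aqp1 spanned 1. With fewer reads, Prlr (46 and 33 reads) was lower at -0.84 and Slc4a5 (18 and 36 reads) higher at 0.61. Ttr, the thyroid hormone carrier made in bulk by choroid plexus, measured 61.8 and 117 TPM, most of each sum. Kcne2 (log2 ratio 1.30) and Clic6 (log2 ratio 1.35) passed 2-fold. Aldh1a2 was also higher in replicate 2 and Ptgds was lower there, and the part of choroid plexus in either was not tested.

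Markers of cartilage, bone, muscle and skin were near 0 but for 1 gene. Of 12 only Col2a1, the main cartilage collagen, was detected, at 31.5 and 44.6 TPM (log2 ratio 0.59), a level close to that of Col1a1. The others summed to little: the list as a whole held 33.0 and 47.0 TPM, Krt15 measured 0.34 and 0.77 TPM, and Myod1, the master factor of muscle, 0.03 and 0.02 TPM. None of the 12 had 0 reads in both libraries. The part of Col2a1-making cells in the collagen values was not tested.

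**Figure D4:**
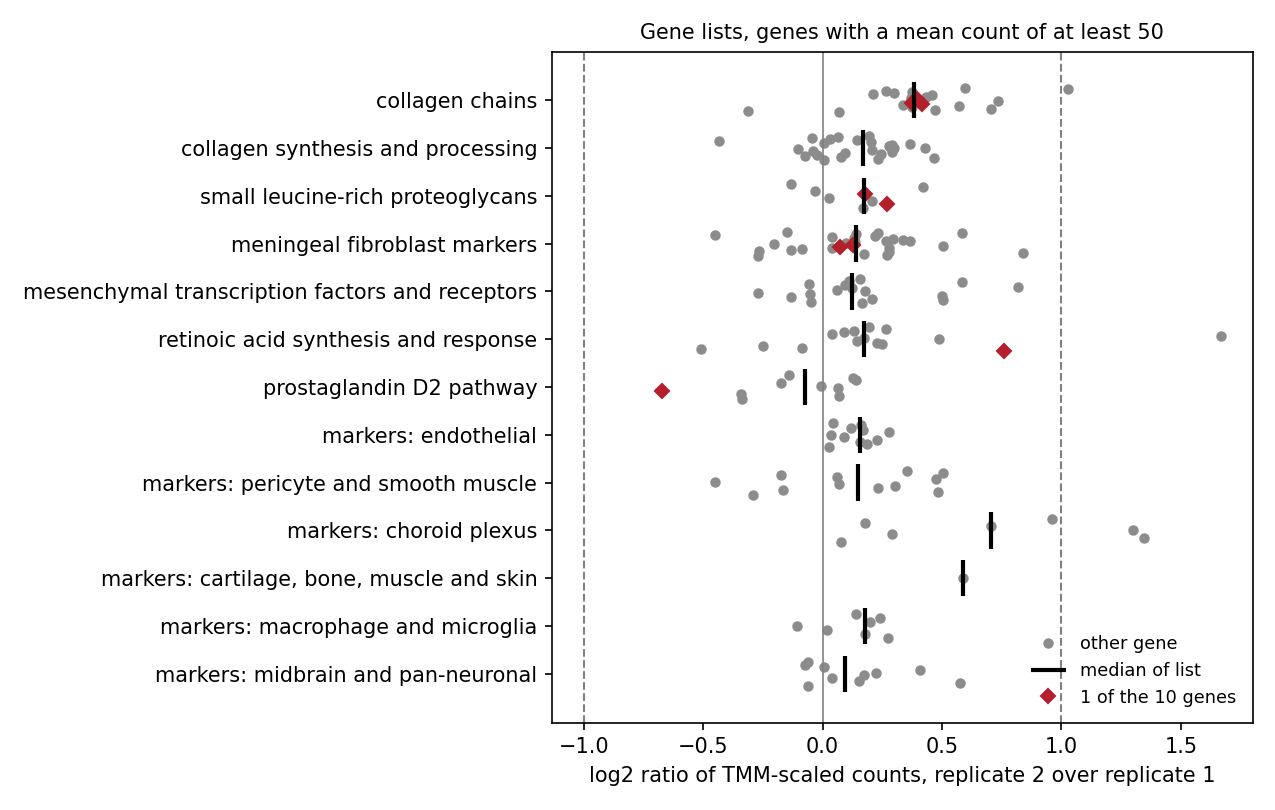
Log2 ratio of TMM-scaled counts, replicate 2 over replicate 1, for genes averaging 50 reads or more in each of the 13 gene and marker lists. Diamonds are the genes followed here, circles other genes and bars the list medians. Collagen chains centre at 0.38 and choroid plexus markers at 0.70. Of the 10 midbrain and neuronal markers 7 are higher and 3 lower in replicate 2. They centre at 0.09 and run from -0.07 (Stmn2) to 0.58 (En1), with Pax7 second highest at 0.41.

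The genomic surroundings of the genes showed no common level. Col3a1 lies 24.6 kb from Col5a2, a chain of type V collagen that is incorporated into the same fibrils, which measured 11.3 and 12.9 TPM and was also higher in replicate 2 (log2 ratio 0.21). Ptgds lies between the DNA repair gene Paxx, at 75.1 and 66.8 TPM, and the lipocalin gene Lcn12, which had no reads. Col1a1 lies between Tmem92, with no reads, and Sgca, at 0 and 0.29 TPM. Foxc1 lies 7.10 kb from Gmds, at 22.1 and 21.7 TPM. Strand use in the counting was not given in the sources used here. Of the 10 genes only Aldh1a2 overlaps an annotated gene on the other strand, the processed pseudogene Gm48124, which was not analysed here.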

How the data were processed

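Total RNA of embryonic midbrain was measured in 2 libraries of 1 group. For each library the authors deposited tables of genes and of transcripts for assembly mm10 and GENCODE M4, per the text deposited with the libraries. The deposited expected counts are estimated reads per gene or transcript, which need not be whole. They were rounded before use. The deposited TPM values are scaled to length and to 1 total per library, spike-ins included, and the deposited FPKM values to length and aligned reads, per the file headers and column sums. The deposited percent values give each transcript's share of its gene. Aligner, versions and use of strand were not given in the sources used here.

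Symbols, types and positions came from GENCODE M21 of GRCm38, matched by Ensembl identifier without its version (42462 of 43346 genes matched, 884 did not). Positions of promoters are those of RefSeq on GRCm38.p6. Counts were scaled over genes with TMM in edgeR 4.0.16 (R 4.3.3), 0.5 was added before log2, and genes averaging 50 reads or more were compared by a rule of size, 2-fold. Intervals were computed with scipy 1.17.1. With 1 library a side no gene could be tested for a difference between the libraries, and no test across genes was run. Alternatives were DESeq2 1.42.0 size factors, total counts, deposited TPM plus 0.1, other minimums, FPKM and 1.5-fold. The size rule was tested on simulated data. SDs cover only the spread between these 2 libraries.

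The 10 genes and the lists were chosen with earlier results of these data known. Named from each list were the 4 genes with the highest mean TPM, the lowest and those past 2-fold, besides the nearest protein-coding neighbours and the genes of 11 pairs. Some genes this rule takes are not described.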

Additional observations from a re-analysis of the deposited data

Results flagged for a closer look

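Reads on the added spike-in RNAs are a signal in entries that none of the comparisons used. They came to 715022 reads in replicate 1 and 1699859 reads in replicate 2, or 5.36% and 9.39% of the total TPM. The labels name the spike-ins as added, and a larger spike-in share lowers every gene's deposited TPM in that library, which is why differences between the libraries were taken from counts over genes alone.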

How the results depend on the processing

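The directions of the 10 genes' log2 ratios did not change under DESeq2 size factors, total gene counts or deposited TPM plus 0.1. Of these 30 values, 2 moved by more than their counting interval, Col1a1 to 0.35 and Col3a1 to 0.32, both with deposited TPM plus 0.1. That scaling moved the median of all genes to -0.04 and the share of higher calls among genes past 2-fold from 70.2% to 62.1%. The number of all genes past 2-fold, 104, became 538 with a mean count of at least 10 and 4959 with no count minimum. At 1.5-fold, 475 genes passed, with 2 of the 9 followed here, Aldh1a2 and Ptgds, beside 3.31% of all genes. Detection depended on the minimum for genes near 1 TPM: 10 of the 10 passed at 0.5 TPM, 7 at 2 TPM and 7 at an FPKM of at least 1, and 10 without replicate 1 and 9 without replicate 2. The log2 ratio of Col1a1 over Col1a2 lay between -0.08 and -0.06 when each library was taken alone. Depth limits Foxc1, Foxd1 and Twist1, each with at most 124 reads in a library. Libraries could not be paired between groups because there is only 1 group. Ratios between genes were taken within each library.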
